A study of Mus musculus with 6 samples.

Results

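Keratins are the intermediate filament proteins of epithelial cells, and the expression of the keratin genes was analysed in colon tissue of mice with colitis. All genes whose symbol is Krt followed by digits and at most 1 letter were taken, which gave 43 of the 18477 genes listed. Of these, 5 (Krt7, Krt8, Krt18, Krt19 and Krt20) are keratins of simple, single-layered epithelium, and the other 38 are called non-simple here. A keratin filament is built of pairs of a type I and a type II chain. The columnar epithelium of the colon makes Krt8 with Krt18, Krt19 and Krt20, whereas the stratified squamous epithelium of the anal canal and skin makes Krt5 with Krt14 in its basal layer, and Krt4 with Krt13 or Krt1 with Krt10 in the layers above. Other keratins belong to hair, nail and the papillae of the tongue.

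Male C57BL/6 mice aged 6 to 8 weeks drank water for 7 days and then 2% dextran sulfate sodium (DSS), which damages the lining of the colon, from day 8 to day 14. The DSS group (n = 3) received PBS by daily gavage for 14 days, and the DSS+BV group (n = 3) received *B. vulgatus*, a gut bacterium, in the same way. Both groups therefore carried DSS injury, and mice without DSS were not analysed here. The libraries were made from colon tissue, whose position along the colon is not given in the sources used here, so keratin values mix all cell types of the wall, and fewer cells of a type cannot be told apart from less keratin RNA per cell. Nothing says whether each library came from a separate mouse, and p-values measure the spread between libraries only. The deposited values are expected counts per gene, and the library totals lay between 15293276 and 17254343. Levels are given as CPM, the count of a gene scaled to a common library size with TMM factors. The edgeR quasi-likelihood test was run over 14579 genes that passed a filter on low counts. Calls needed a Benjamini-Hochberg adjusted p under 0.05 together with a log2 fold change beyond 1 in either direction. A positive log2 fold change means a higher level with DSS+BV. The smallest two-sided p that exact permutation allows at 3 against 3 libraries is 0.1.

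Type I keratin genes lie in a cluster on mouse chromosome 11, where 21 of the 43 are found, and type II genes in a cluster on chromosome 15 with 22. Krt18 is a type I gene that lies at the edge of the type II cluster, next to its partner Krt8 (positions from RefSeq on GRCm38.p6, the build the submitters name). Promoter sequences were matched in RefSeq (GRCm38.p6) for 27 of the 43 genes, with 28 start sites. The 250 bases before the start site are printed for the most abundant simple keratin (Krt8), the simple keratin with the largest difference between groups (Krt7), the simple keratin whose groups overlapped (Krt20), and the non-simple keratins Krt84 and Krt36, which were among the highest of their class by mean CPM. Capitals mark TATAAA (the TATA box) and GGGCGG (the GC box) on either strand. The windows are Krt8 at chr15:102004343-102004592, minus strand, Krt7 at chr15:101412153-101412402, plus strand, Krt20 at chr11:99438154-99438403, minus strand, Krt84 at chr15:101532821-101533070, minus strand, and Krt36 at chr11:100105627-100105876, minus strand, which lies inside the span RefSeq gives to the gene.
Krt8: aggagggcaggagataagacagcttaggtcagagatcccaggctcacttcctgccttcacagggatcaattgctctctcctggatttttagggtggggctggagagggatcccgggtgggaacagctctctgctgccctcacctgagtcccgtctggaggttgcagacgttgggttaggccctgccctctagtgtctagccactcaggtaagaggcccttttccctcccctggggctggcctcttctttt
Krt7: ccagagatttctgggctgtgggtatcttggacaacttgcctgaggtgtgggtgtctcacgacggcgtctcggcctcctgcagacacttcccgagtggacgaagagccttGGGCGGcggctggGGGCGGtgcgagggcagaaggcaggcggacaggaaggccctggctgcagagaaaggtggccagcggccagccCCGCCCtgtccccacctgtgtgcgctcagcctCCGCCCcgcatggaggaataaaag
Krt20: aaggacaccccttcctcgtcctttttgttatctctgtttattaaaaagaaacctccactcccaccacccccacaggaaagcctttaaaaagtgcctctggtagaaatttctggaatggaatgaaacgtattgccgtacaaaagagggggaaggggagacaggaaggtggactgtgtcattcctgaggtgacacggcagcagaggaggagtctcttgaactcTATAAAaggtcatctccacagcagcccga
Krt84: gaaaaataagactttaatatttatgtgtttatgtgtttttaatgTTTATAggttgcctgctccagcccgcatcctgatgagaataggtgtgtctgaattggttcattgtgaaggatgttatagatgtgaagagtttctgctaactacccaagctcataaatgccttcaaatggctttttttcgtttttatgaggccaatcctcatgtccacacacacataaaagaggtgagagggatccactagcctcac
Krt36: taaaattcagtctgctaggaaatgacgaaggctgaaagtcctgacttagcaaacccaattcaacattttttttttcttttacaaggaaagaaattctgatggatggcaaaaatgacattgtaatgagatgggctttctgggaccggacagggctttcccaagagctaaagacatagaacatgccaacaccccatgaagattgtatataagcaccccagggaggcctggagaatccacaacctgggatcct
The GC box was found in 1 of the 28 keratin windows (3.57%), that of Krt7, which holds it 4 times, against 32.7% of 32851 mouse promoter windows of the same length. TATAAA was found in 10 of the 28 (35.7%), against 12.4% of all windows. In Krt20 it starts 29 bases before the start site, and in Krt84 it lies 206 bases before it. TTTAT, the core that posterior homeobox proteins bind, was found in 21 of the 28 (75.0%), against 37.3% of all. Matched on either strand, it lies inside every TATAAA, so the 10 windows with TATAAA are among these 21. Krt84 holds TTTAT 6 times, and the windows of Krt36 and of Krt90 (not printed) do not hold it. The AP-1 letters TGANTCA were in 2 of the 28 (7.14%), against 6.75% of all. These are matches of letters and were not tested as binding sites.

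The simple keratins made up nearly all keratin RNA in every library, and 4 of the 5 were higher in every DSS+BV library than in every DSS library. Over all tested genes, 6.36% were higher without overlap in this way. Their summed expression was 5921, 6269 and 6877 CPM in DSS 1, 2 and 3, and 9853, 11363 and 7660 CPM in DSS+BV 1, 2 and 3. The groups did not overlap, and the means were 6356 ± 483 CPM and 9625 ± 1862 CPM (SD, n = 3 each), a ratio of 1.51. No p is given for this sum, since its genes were chosen with earlier results known.

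Krt8, the type II keratin of simple epithelia, was the most abundant keratin by counts per transcript length (2197 CPM per kb over the 6 libraries). Its level was 3290, 3336 and 3472 CPM in the DSS libraries and 5449, 6249 and 4012 CPM in the DSS+BV libraries. The DSS libraries lay close together, and DSS+BV 3 was the nearest to them. The log2 fold change was 0.64, with a standard error of 0.23 (edgeR adjusted p = 0.36).

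Krt19, a small type I keratin without a tail domain, stood next, at 1540 CPM per kb. It was at 1894, 2015 and 1956 CPM in the DSS libraries and at 3181, 3248 and 2267 CPM in the DSS+BV libraries. As for Krt8, DSS+BV 3 was the lowest of its group and still above all DSS libraries. Its log2 fold change was 0.57 (standard error 0.21, edgeR adjusted p = 0.364).

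Krt18, the type I partner of Krt8, was at 219, 307 and 311 CPM in the DSS libraries and at 461, 528 and 377 CPM in the DSS+BV libraries, again without overlap. On the log2 scale the difference was 0.71 (standard error 0.21, edgeR adjusted p = 0.32). Per transcript length, the level of Krt18 was only 0.0909 to 0.128 of that of Krt8 in the same library, and that of Krt19 was 0.646 to 0.75.

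Krt7, a type II keratin of ducts and glands, was the lowest of the simple keratins and had the largest difference. It was at 73.8, 96.3 and 60.7 CPM in the DSS libraries and at 119, 202 and 193 CPM in the DSS+BV libraries. The groups did not overlap, and DSS+BV 1 lay nearest to the DSS libraries. The log2 fold change was 1.16 (standard error 0.26, unadjusted p = 0.00359, edgeR adjusted p = 0.241). With DESeq2, the tool of the study, Krt7 was called higher (log2 fold change 1.18, adjusted p = 0.00708), and it was the only keratin called by DESeq2, against 0.279% of all genes called higher and 1.73% called lower by this tool. Over the edgeR alternatives its adjusted p ran from 0.123 to 0.903.

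Krt20, the type I keratin of differentiated surface cells, was the only simple keratin whose groups overlapped. It was at 445, 515 and 1077 CPM in the DSS libraries and at 644, 1135 and 810 CPM in the DSS+BV libraries. DSS 3 lay above DSS+BV 1 and DSS+BV 3, whereas DSS 1 and DSS 2 were the lowest of all. Its log2 fold change was 0.35 (standard error 0.39, edgeR adjusted p = 0.737), and it was 0.85 without DSS 3 and 0.10 without DSS+BV 2. In DSS 3, Krt20 made up 15.7% of simple keratin counts, against 6.54% to 10.6% in the other libraries.

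**Figure D1:**
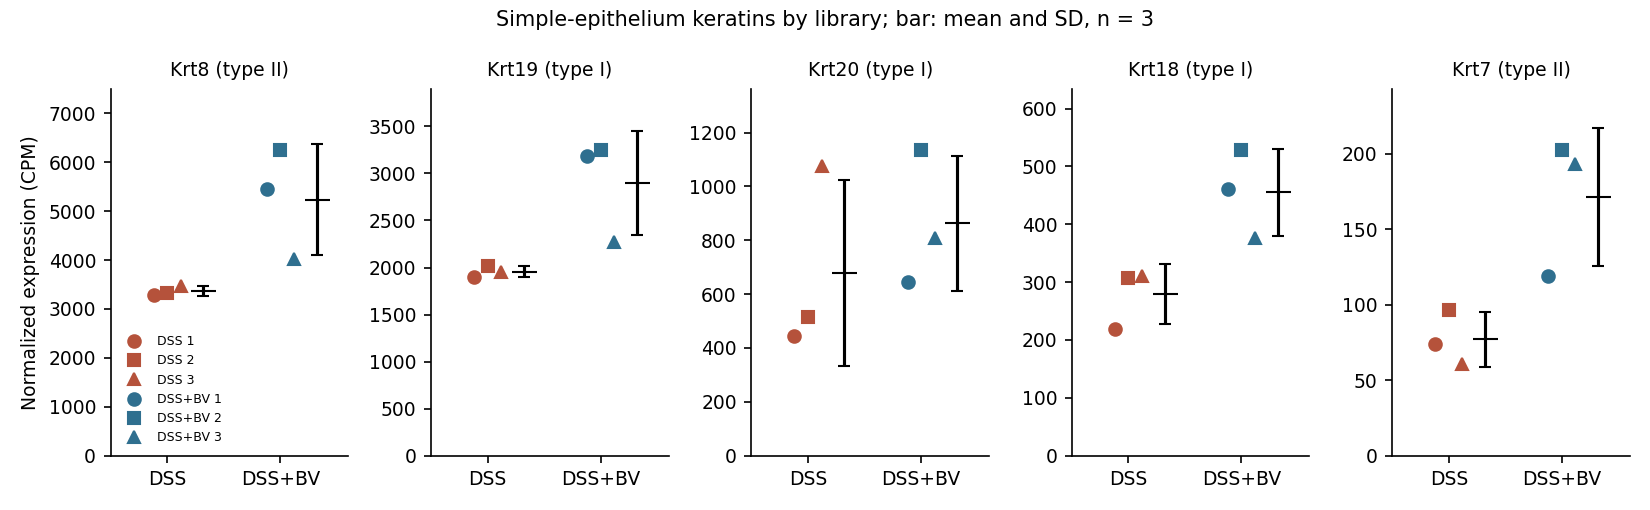
Normalized expression (CPM, linear axes from 0) of the 5 simple keratins in each library, with DSS and DSS+BV on the horizontal axis and the bar giving the mean and SD of 3 libraries. In Krt8, Krt19, Krt18 and Krt7 the 3 DSS+BV libraries lie above the 3 DSS libraries, and in Krt20 DSS 3 (1077 CPM) lies among the DSS+BV libraries.

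None of the 18 keratins that passed the filter on low counts was called by edgeR in either direction, against 0.0892% of all tested genes called lower and 0% called higher. At an unadjusted p under 0.05, 4 keratins were higher (Krt7, Krt8, Krt18 and Krt19) and 3 were lower (Krt23, Krt80 and Krt90), against 3.4% and 9.12% of all tested genes. The groups did not overlap, with DSS+BV higher, in the same 4 of the 5 simple keratins and in 0 of the 13 tested non-simple keratins, against 6.36% of all tested genes. In the lower direction they did not overlap in 1 keratin, Krt80, against 11.3% of all tested genes. Krt20 overlapped through DSS 3 alone, so leaving out DSS 3, a setting not planned, was bound to end its overlap. In that setting 8.53% of all tested genes were higher without overlap. With any other library left out, the count of simple keratins higher without overlap stayed at 4. The median log2 fold change was 0.64 over the 5 simple keratins, -0.57 over the 13 tested non-simple keratins and -0.01 over all tested genes.

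**Figure D2:**
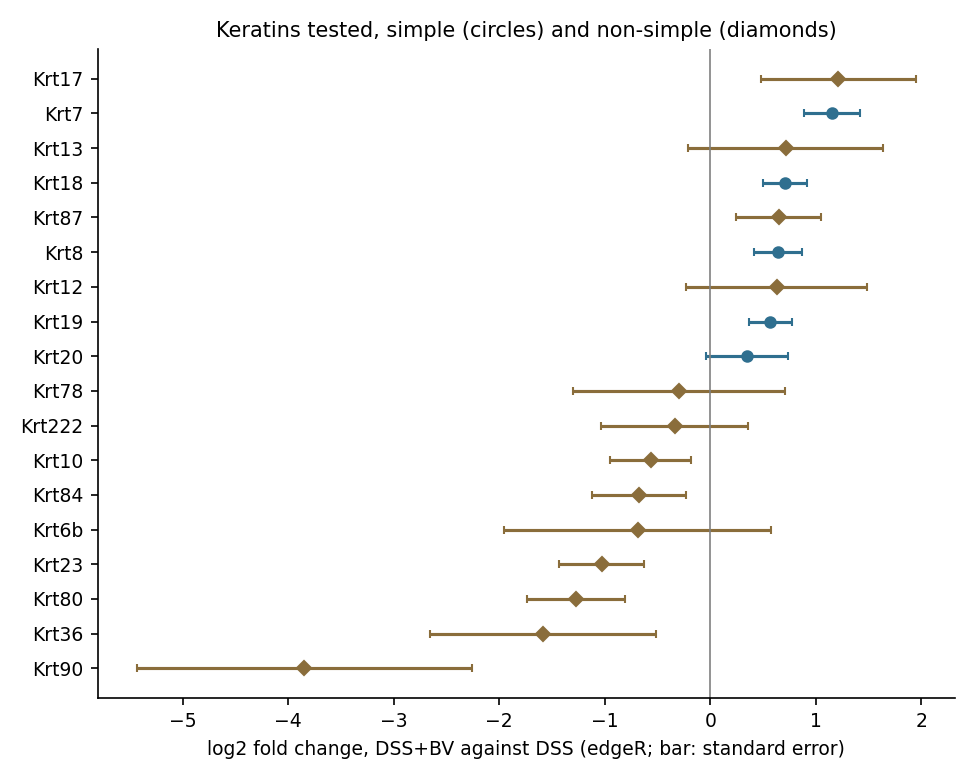
Log2 fold change of DSS+BV against DSS with its standard error for the 18 keratins tested, simple keratins as circles and non-simple keratins as diamonds. The 5 circles lie between 0.35 and 1.16, and the diamonds run from -3.85 (Krt90) to 1.21 (Krt17), most with longer bars.

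The balance of type I to type II chains among the simple keratins was near 1 when counts were divided by transcript length. This ratio was 0.933, 1.02 and 1.13 in the DSS libraries and 0.951, 0.931 and 1.01 in the DSS+BV libraries, and the groups overlapped. The highest value was that of DSS 3, the library with the high Krt20. The share of Krt8 in simple keratin counts was also alike, between 50.5% and 55.6% in all 6 libraries. The share of Krt7 was 1.25%, 1.54% and 0.882% in the DSS libraries and 1.21%, 1.78% and 2.52% in the DSS+BV libraries, with overlap.

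Genes of the colon epithelium were also higher in sum in the DSS+BV libraries, and how the simple keratins compared with them depended on the genes summed. The 6 defining markers Epcam, Vil1, Cdx2, Lgals4, Cdh17 and Phgr1 summed to 5854, 7582 and 7302 CPM in the DSS libraries and to 8441, 9577 and 8097 CPM in the DSS+BV libraries. Relative to this sum, the simple keratins stood at 1.01, 0.827 and 0.942 in the DSS libraries and at 1.17, 1.19 and 0.946 in the DSS+BV libraries. On this measure DSS+BV 3 fell within the DSS range, the groups overlapped, and the ratio of the means went from 1.51 to 1.19. The whole colon epithelium list of 31 genes summed to 22536, 38247 and 37080 CPM in the DSS libraries and to 37484, 49193 and 59476 CPM in the DSS+BV libraries, a ratio of means of 1.49 with DSS+BV 1 just below DSS 2. Relative to the whole list the simple keratins stood at 0.263, 0.164 and 0.186 in the DSS libraries and at 0.263, 0.231 and 0.129 in the DSS+BV libraries. The groups overlapped, and the ratio of the means was 1.02. Much of the difference in the whole-list sum lay in 2 of its genes, Muc2 and Car1, so this ratio depends on them. Mean Muc2 was 5583 CPM with DSS and 11948 CPM with DSS+BV, and mean Car1 was 935 and 6693 CPM. Epcam, an epithelial adhesion protein, differed by 0.21 on the log2 scale (standard error 0.18). Vil1, the villin of the brush border, differed by 0.48 (standard error 0.15, edgeR adjusted p = 0.336). The difference for Cdx2, a transcription factor of the intestine, was 1.16 (standard error 0.78). The part of the epithelial share in the keratin difference was not tested. Of the 30 tested genes of the colon epithelium list, 0 were called by edgeR, 7 were higher at an unadjusted p under 0.05 (3.4% of all tested genes), 5 were higher without overlap (6.36% of all tested genes), and the median log2 fold change was 0.31. Its most abundant genes, the mucin Muc2, the adhesion molecule Ceacam1 and the galectin Lgals4, had log2 fold changes of 1.10, 0.48 and 0.30 with overlapping groups. DESeq2 called 2 genes of the list higher (0.279% of all genes with this tool), Car1 and Lgr5, named after their values were seen. Car1, a carbonic anhydrase of surface colonocytes, was at 825, 1041 and 939 CPM in the DSS libraries and at 924, 10453 and 8702 CPM in the DSS+BV libraries. Lgr5, a stem cell receptor, was at 0.239, 0.622 and 0.349 CPM and at 0.462, 6.75 and 5.37 CPM in the same order. In both genes DSS+BV 1 lay within the DSS range, and the groups overlapped.

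Genes for proteins that anchor keratin filaments at the desmosome or link them to other structures showed smaller differences in RNA. Of 14 tested genes of the desmosome and plakin list 0 were called by edgeR or DESeq2, 1 was higher at an unadjusted p under 0.05 (3.4% of all tested genes), 3 were higher without overlap (6.36% of all tested genes), and the median log2 fold change was 0.21. Dsp (desmoplakin), which ties keratin to the desmosome, averaged 630 ± 138 CPM with DSS and 697 ± 41.6 CPM with DSS+BV (SD, n = 3 each). Plec, the plectin that links filaments to hemidesmosomes, averaged 556 ± 6.81 CPM and 652 ± 44.6 CPM (SD, n = 3 each), with a log2 fold change of 0.23. The desmosomal cadherin Dsg2 had one of 0.17 with overlapping groups.

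The squamous keratins were close to absent, so the non-simple keratins of this tissue are not mainly squamous ones. The 15 squamous keratins listed (3 basal, 3 suprabasal mucosal, 5 suprabasal epidermal and 4 of activated epidermis) summed to 4.91 to 9.32 CPM in the DSS libraries and 3.1 to 10.4 CPM in the DSS+BV libraries. They were 0.0403% to 0.134% of keratin counts, and the groups overlapped. Krt5, the basal type II keratin, had at most 2 counts in a library, and Krt4 at most 1. Krt14 and Krt15, the basal type I keratins, reached 10 and 14 counts and did not pass the filter. Trp63, the transcription factor of the basal squamous layer, was at 0.659, 0 and 0.175 CPM in the DSS libraries and at 0.066, 0.0637 and 0 CPM in the DSS+BV libraries. It was highest in DSS 1 and at 0 in 1 library of each group.

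Of the 38 non-simple keratins, 25 did not pass the filter. Of these, 7 were at 0 in every library, which allows a level of up to 0.198 CPM in the smallest library, and 21, these 7 included, had at most 3 counts in any library. Differences in these genes were not detectable at this depth.

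The 5 squamous keratins that passed the filter were low and variable. Krt17, which is induced in injured epidermis, was at 0.539, 0.933 and 1.11 CPM in the DSS libraries and at 2.84, 2.8 and 0.379 CPM in the DSS+BV libraries. DSS+BV 1 and 2 were the highest and DSS+BV 3 the lowest of all, and the log2 fold change of 1.21 had a standard error of 0.73 (edgeR adjusted p = 0.536). Krt13, of mucosal squamous epithelium, was at 0.599, 0.187 and 0.582 CPM in the DSS libraries and at 1.45, 0.764 and 0.0632 CPM in the DSS+BV libraries, with the highest and the lowest value in the same group. Krt78, of the upper squamous layers, was at 0.719, 0.622 and 2.8 CPM in the DSS libraries and at 1.98, 1.34 and 0.0632 CPM in the DSS+BV libraries. In these 3 genes and in Krt6b, DSS+BV 3 had 6 counts or fewer. Krt10, of the suprabasal epidermis, was at 1.32, 1.62 and 2.21 CPM in the DSS libraries and at 1.19, 0.828 and 1.45 CPM in the DSS+BV libraries, with overlap. Krt6b was at 1.26, 0.249 and 0.812 CPM in the DSS libraries and at 1.39, 0 and 0.0632 CPM in the DSS+BV libraries. Krt6a and Krt6b are near-identical copies, and in DSS 3 their expected counts were not whole (8.06 and 13.9), so reads were divided between them and their separate values are uncertain.

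Other genes of squamous differentiation ranged from abundant to absent. Of 35 genes of that list in the table, 12 had a mean over 10 CPM and 10 had at most 3 counts in any library. The highest were the small proline-rich genes Sprr2a2, Sprr2a1 and Sprr2a3, at 7525 ± 5084, 6896 ± 4853 and 758 ± 519 CPM with DSS and 4969 ± 1771, 4109 ± 1554 and 422 ± 160 CPM with DSS+BV (SD, n = 3 each). The groups overlapped, the gut epithelium is known to express this family too, and its members are near-identical copies that can share reads. The squamous cadherin Dsg3, named after its values were seen, was at 0 to 1.32 CPM. Ly6d, another squamous marker named after its values were seen, was not near absent and passed the filter. It was at 9.52, 7.65 and 19.6 CPM in the DSS libraries and at 14.1, 3.63 and 2.15 CPM in the DSS+BV libraries, with overlap. The sum of the list was 6728 to 28483 CPM in the DSS libraries and 7096 to 14940 CPM in the DSS+BV libraries. Of 22 tested genes 0 were called by edgeR, and the median log2 fold change was -0.41. At an unadjusted p under 0.05, 1 was lower and 2 were higher (9.12% and 3.4% of all tested genes). Without overlap, 2 were lower and 2 higher (11.3% and 6.36% of all tested genes). DESeq2 called 1 lower (1.73% of all genes with this tool), the crosslinking enzyme Tgm1, also named after its values were seen.

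Krt84, Krt90 and Krt36 had the highest mean CPM of the non-simple class over the 6 libraries, were grouped here after their values were seen, and together made up 29.4% to 77.4% of non-simple counts. The high means of Krt90 and Krt36 rest on DSS 1 and DSS 3. Per transcript length Krt23 (4.36 CPM per kb) stood above Krt36 (4.17) and Krt90 (2.78) and below Krt84 (4.77), and in the DSS+BV group the mean of Krt23 (4.48 CPM) was above those of Krt36 (3.48 CPM) and Krt90 (0.915 CPM). Krt84 and Krt36 are hard keratins known from nail and tongue papillae, and Krt90 is a type II keratin whose gene lies 1 gene away from Krt84. Their summed level was 67.1, 11.9 and 37.2 CPM in the DSS libraries and 24, 10.7 and 6.83 CPM in the DSS+BV libraries. DSS 1 and DSS 3 stood above all DSS+BV libraries, but DSS 2 lay within the DSS+BV range.

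Krt90 varied most among the tested keratins that had a count in every library. It was at 26.7, 0.0622 and 12.8 CPM in the DSS libraries and at 2.11, 0.382 and 0.253 CPM in the DSS+BV libraries, a range of 430-fold, and the lowest value, 1 count in DSS 2, was in the DSS group. On the log2 scale the difference was -3.85 (standard error 1.59, unadjusted p = 0.0475, edgeR adjusted p = 0.396), and with 1 library left out it ran from -5.32 (without DSS+BV 1) to -2.82 (without DSS 1).

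Krt36 was at 21.1, 1.06 and 9.14 CPM in the DSS libraries and at 5.94, 3.82 and 0.695 CPM in the DSS+BV libraries. As in Krt90, DSS 1 was the highest and DSS 3 the next, and DSS 2 was among the lowest 2 libraries. The log2 fold change was -1.58 (standard error 1.07, edgeR adjusted p = 0.575), and with 1 library left out it ran from -2.18 (without DSS+BV 1) to -0.56 (without DSS 1).

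Krt84 was at 19.3, 10.8 and 15.2 CPM in the DSS libraries and at 16, 6.5 and 5.88 CPM in the DSS+BV libraries. It varied over 3.28-fold, less than the other two, and DSS+BV 1 lay among the DSS libraries. Its log2 fold change was -0.67 (standard error 0.44, edgeR adjusted p = 0.565), and with 1 library left out it ran from -1.27 (without DSS+BV 1) to -0.42 (without DSS+BV 3).

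The genes beside them in the clusters did not share these levels. Krt36 lies at chr11:100102012-100109487 between Krt35, at 0 in every library, and Krt13, at most at 1.45 CPM. Krt84 lies at chr15:101525026-101532820 and Krt90 at chr15:101552356-101562950, and Krt82 between them had at most 1 count. Krt83, on the other side of Krt84, had at most 3 counts.

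Markers of hair follicle were low or near the limit of detection. That list has 10 genes in the data, of which 6 had at most 3 counts in any library, and the list summed to 2.43 to 6.87 CPM in the DSS libraries and 1.45 to 5.48 CPM in the DSS+BV libraries. Its most abundant genes were the transcription factor Foxn1 (1.39 ± 0.797 and 2.16 ± 1.54 CPM), the keratin-associated protein Krtap13 (1.35 ± 1.43 and 0.606 ± 0.531 CPM) and the trichohyalin Tchh (0.857 ± 0.431 and 0.665 ± 0.0806 CPM in the DSS and DSS+BV groups, SD, n = 3 each). None of the 3 tested genes was called by edgeR or DESeq2, 0 had an unadjusted p under 0.05, and the median log2 fold change was -0.36. The hair keratin Krt87 was at 1.74, 2.61 and 1.28 CPM in the DSS libraries and at 1.98, 3.06 and 3.79 CPM in the DSS+BV libraries, with overlap.

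Homeobox genes of the distal hindgut varied across the libraries as well. Hoxd13 was at 98.8, 1.06 and 42.9 CPM in the DSS libraries and at 61.9, 35.2 and 0.0632 CPM in the DSS+BV libraries. Hoxb13 was at 211, 36.4 and 125 CPM and at 248, 112 and 0 CPM in the same order. DSS 2 and DSS+BV 3 were the lowest 2 libraries for Hoxb13, Hoxd13, Krt36 and Krt90, and DSS 1, DSS 3 and DSS+BV 1 the highest 3. Low values in DSS 2 and DSS+BV 3 were not particular to these genes. The same 2 libraries were also the lowest for Sprr2a1, Sprr2a2, Sprr2a3, Foxn1, Krtap13, Krt13 and Krt78, and the highest for Muc2. In DSS+BV 1 both homeobox genes were higher than in DSS 3, while Krt36 and Krt90 were lower there than in DSS 3. Hoxa13, the next of the list, was at 15.1, 21 and 11.1 CPM in the DSS libraries and at 15.6, 4.46 and 0.19 CPM in the DSS+BV libraries. It did not follow that order, since DSS 2 was its highest library. Of the 6 tested genes of the list 0 were called by edgeR or DESeq2, 0 had an unadjusted p under 0.05, and the median log2 fold change was -0.17. The list summed to 58.9 to 344 CPM in the DSS libraries and 14 to 340.5 CPM in the DSS+BV libraries. The part of the sampled position along the colon in the levels of these keratins was not tested.

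**Figure D3:**
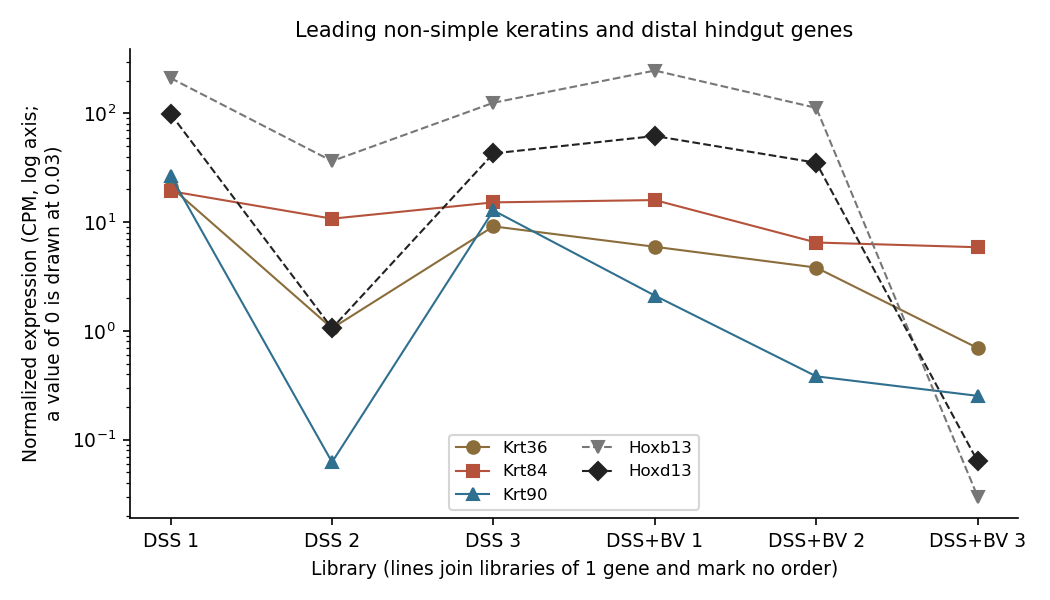
Normalized expression (CPM, log axis, 0 drawn at 0.03) of Krt36, Krt84, Krt90, Hoxb13 and Hoxd13 in each of the 6 libraries, with lines joining the values of 1 gene. All 5 genes are lower in DSS 2 than in DSS 1 and DSS 3, and in DSS+BV 3 Hoxd13 falls to 0.0632 CPM and Krt36 to 0.695 CPM.

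Among the remaining non-simple keratins, Krt80 and Krt23 had lower means in the DSS+BV group and an unadjusted p under 0.05. Krt80, a type II keratin found in many epithelia, was at 5.75, 5.72 and 7.4 CPM in the DSS libraries and at 4.29, 2.29 and 1.2 CPM in the DSS+BV libraries. Its groups did not overlap, and DSS+BV 1 lay nearest to the DSS libraries. On the log2 scale the difference was -1.28 (standard error 0.46, unadjusted p = 0.0299, edgeR adjusted p = 0.366, DESeq2 adjusted p = 0.172), and it ran from -1.83 to -0.93 over the alternatives.

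Krt23, a type I keratin induced in stressed liver, was at 5.03, 10.4 and 12 CPM in the DSS libraries and at 6.2, 3.44 and 3.79 CPM in the DSS+BV libraries. DSS 1 was below DSS+BV 1, so the groups overlapped. The log2 fold change was -1.03 (standard error 0.41, unadjusted p = 0.0405, edgeR adjusted p = 0.388, DESeq2 adjusted p = 0.244).

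Krt12, the type I keratin of the cornea, was at 0.24, 0.373 and 1.51 CPM in the DSS libraries and at 0.33, 1.08 and 1.9 CPM in the DSS+BV libraries. Krt222 was at 0.479, 1.62 and 2.45 CPM in the DSS libraries and at 0.989, 0.573 and 2.02 CPM in the DSS+BV libraries. Both overlapped, with log2 fold changes of 0.63 and -0.34 (edgeR adjusted p = 0.786 and 0.868).

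**Figure D4:**
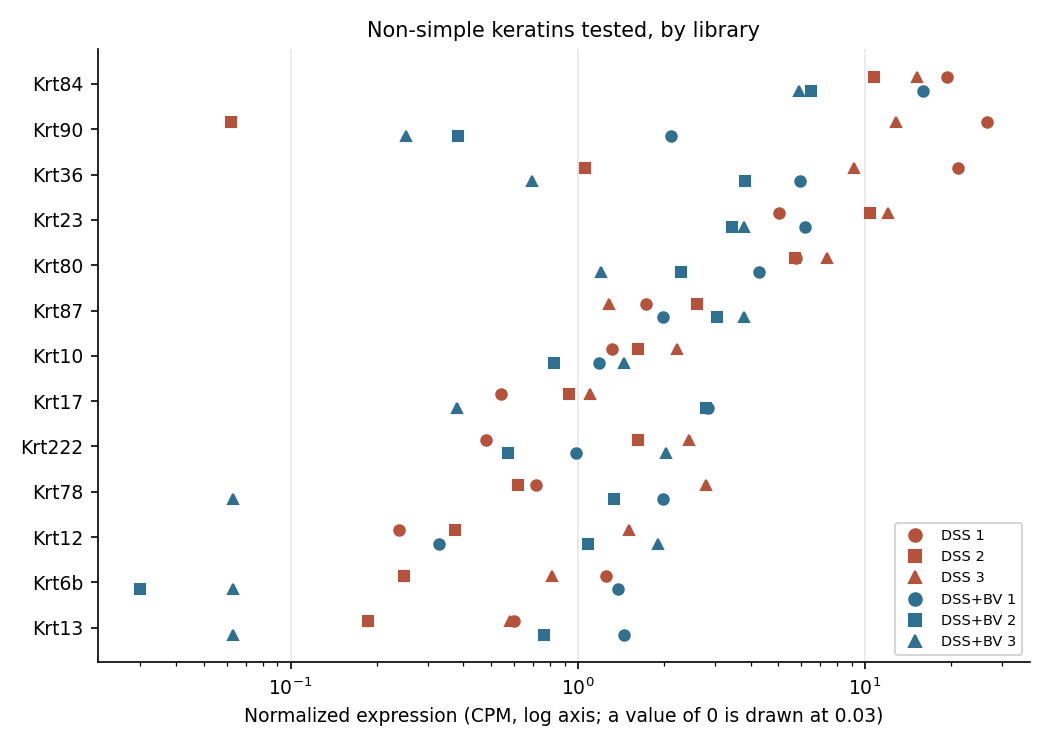
Normalized expression (CPM, log axis, 0 drawn at 0.03) of the 13 non-simple keratins tested, with DSS libraries in red and DSS+BV libraries in blue. Only in Krt80 do all 3 DSS+BV libraries lie below all 3 DSS libraries, and the other 12 overlap.

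The non-simple keratins were a small share of keratin counts, and every DSS+BV library had a smaller share than every DSS library. It was 1.44% (exact binomial 95% interval 1.37% to 1.52%), 0.6% (0.554% to 0.65%) and 1.03% (0.972% to 1.09%) in DSS 1, 2 and 3. In DSS+BV 1, 2 and 3 it was 0.49% (0.456% to 0.527%), 0.254% (0.231% to 0.278%) and 0.302% (0.272% to 0.335%). The intervals cover counting error only. The group means were 1.02% ± 0.422 and 0.349% ± 0.125 (SD, n = 3 each), and the groups did not overlap, DSS 2 and DSS+BV 1 being the nearest. The denominator of this share is nearly all simple keratin counts, which were higher in the DSS+BV libraries. The non-simple sum was 86.8, 37.9 and 71.5 CPM in the DSS libraries and 48.6, 28.9 and 23.2 CPM in the DSS+BV libraries, with DSS+BV 1 above DSS 2. Without Krt36, Krt84 and Krt90 the sum was 19.6, 26 and 34.3 CPM in the DSS libraries and 24.5, 18.2 and 16.4 CPM in the DSS+BV libraries, and the groups overlapped as well. The summed squamous keratins had nearly equal means, 6.78 ± 2.28 and 6.91 ± 3.67 CPM (SD, n = 3 each).

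**Figure D5:**
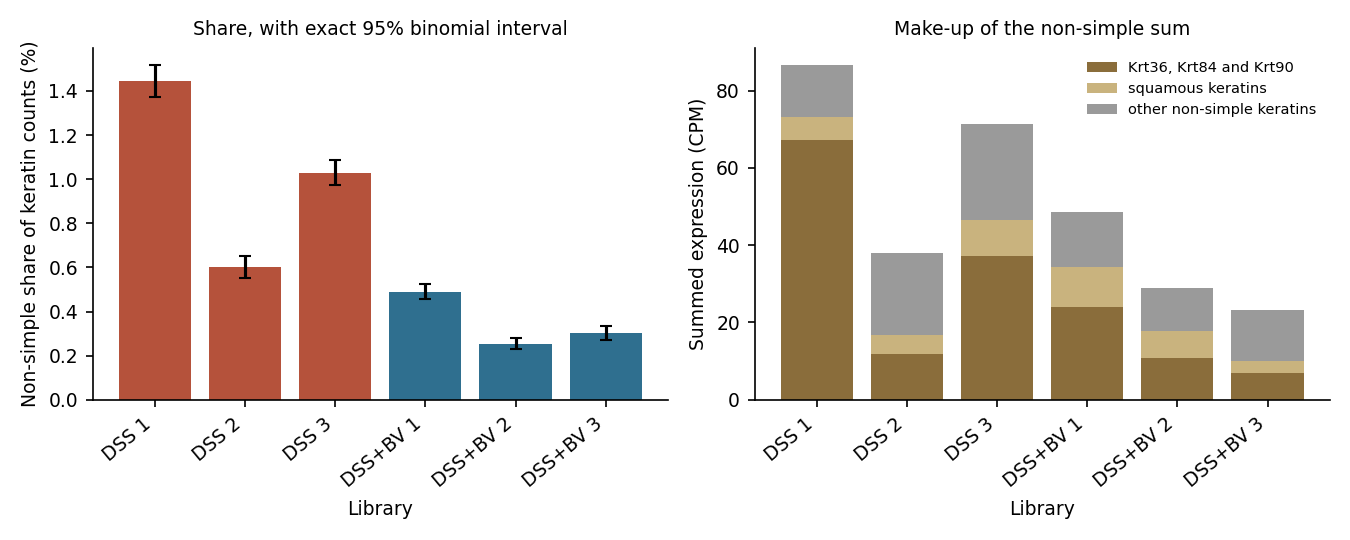
Left, non-simple keratins as a percent of all keratin counts in each library, with the exact binomial 95% interval. Right, summed expression (CPM) of the non-simple keratins, divided into Krt36, Krt84 and Krt90, the squamous keratins and the rest. The share is 0.6% to 1.44% in the DSS libraries and 0.254% to 0.49% in the DSS+BV libraries, and the squamous part does not exceed 10.4 CPM.

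Intermediate filament genes of other cell types were compared in the same libraries, since the colon wall holds mesenchyme, muscle, nerve and serosa. Des (desmin, of muscle), Lmna (a nuclear lamin) and Vim (vimentin, of mesenchyme) were the most abundant. They averaged 396 ± 42.6, 243 ± 53.9 and 221.8 ± 52.8 CPM with DSS and 394 ± 143, 303 ± 80.3 and 161 ± 57.7 CPM with DSS+BV (SD, n = 3 each), all with overlap. Of the 13 genes 0 were called by edgeR, 4 were lower at an unadjusted p under 0.05 (9.12% of all tested genes), 4 were lower without overlap (11.3% of all tested genes), and the median log2 fold change was -0.46. DESeq2 called 2 lower (1.73% of all genes with this tool), Gfap of enteric glia and Prph of enteric neurons, both named after their values were seen. Gfap averaged 25 ± 12.4 CPM with DSS and 8.51 ± 1.22 CPM with DSS+BV, and Prph 27.7 ± 21.4 and 5.31 ± 1.75 CPM (SD, n = 3 each).

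The mesothelium of the serosa also makes simple keratins, and its defining markers were low. Msln averaged 2.1 ± 1.46 CPM with DSS and 0.696 ± 0.667 CPM with DSS+BV (SD, n = 3 each), and Upk3b was at 0 in all DSS+BV libraries and at most at 0.582 CPM in a DSS library. The list of 10 summed to 23.6 to 41.2 CPM in the DSS libraries and 8.35 to 31.3 CPM in the DSS+BV libraries, led by Cpxm1 (18.8 ± 8.23 and 9.98 ± 11.4 CPM), Gpm6a (4.12 ± 1.35 and 3.16 ± 0.815 CPM) and Rspo1 (2.65 ± 0.227 and 0.923 ± 0.202 CPM, SD, n = 3 each). Of 5 tested genes 0 were called by edgeR. At an unadjusted p under 0.05, 1 was lower (9.12% of all tested genes), Rspo1, with a log2 fold change of -1.51 (edgeR adjusted p = 0.219). Its groups did not overlap, against 11.3% of all tested genes lower without overlap. DESeq2 called Rspo1 lower (1.73% of all genes with this tool), and the median log2 fold change over the 5 tested genes was -0.92.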

How the data were processed

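Colon RNA in 3 DSS and 3 DSS+BV libraries was sequenced by the authors. The authors deposited expected counts per gene from RSEM 1.2.8, unscaled. The submitters' processing notes also list HISAT2 2.1.0, Bowtie2 2.2.5 and the build GRCm38.p6. Samples were grouped by their titles.

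Expected counts were rounded, filtered with filterByExpr (minimum count 10, minimum total 15), scaled with TMM factors and tested with edgeR 4.0.16 in R 4.3.3. Alternatives were DESeq2 1.42.0, other factors and filters, a replicate block and each library left out. The scripts were tested on simulated data. Transcript lengths are those of the longest APPRIS principal transcript of GENCODE M21, 4094 bases for Krt7. Every simple keratin, and every other keratin passing the filter, was named, with the 3 most abundant genes of each context list and fixed defining markers. Keratins and lists were chosen with earlier results of these data known.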

Additional observations from a re-analysis of the deposited data

How the results depend on the processing

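With 3 libraries per group, all calls rest on few samples. No keratin was called lower in any setting, and DESeq2 alone called 1 higher, Krt7. Over all genes, DESeq2 called 280 lower and 45 higher, against 13 and 0 with edgeR. In the context lists DESeq2 called 1 squamous differentiation, 2 colon epithelium, 1 mesothelium and 2 other intermediate filament genes. With 1 library left out, edgeR called 0 to 3 genes lower and 0 to 4 higher, and 0 to 1 colon epithelium genes, the highest counts being those without DSS+BV 1. The log2 fold of the simple sum was 0.60, 0.25 relative to the 6 colon epithelium markers and 0.0246 relative to the whole colon epithelium list (both added after seeing the data), and 0.46 (without DSS+BV 2) to 0.74 (without DSS+BV 3) with 1 library left out. That of the non-simple sum was -0.96, and -1.33 to -0.70. The difference in non-simple share was -0.676 percentage points, -1.13 without Krt8 and Krt84, and -0.888 to -0.466 with 1 library left out. The simple type I to type II ratio of counts, not divided by transcript length, had a log2 fold of -0.11. It was -0.61 without Krt8, which leaves Krt7 as the only type II member, and -0.18 to -0.02 with 1 library left out. Divided by transcript length, the ratio had a log2 fold of -0.09. Signs turned in 4 low keratins: Krt222 (0.19) and Krt78 (0.74) without DSS 3, Krt78 (0.27) and Krt12 (-0.00168) without DSS+BV 3, and Krt13 (-0.13) without DSS+BV 1. With 1 library left out they ran from -0.94 to 0.19 (Krt222), -0.97 to 0.74 (Krt78), -0.00168 to 1.83 (Krt12) and -0.13 to 1.26 (Krt13). The cause was not tested.

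The labels give no link between same-numbered libraries beyond the number. Their deviations correlated at 0.267, 0.255 and -0.296 across genes, and 2 of 6 libraries correlated best with their own number. With 3 libraries per group, these values cannot decide whether the libraries were paired. With the replicate block, 0 lower and 0 higher genes were called over the table, and no keratin.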
